A study of Homo sapiens with 15 samples.

Results

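Amino acid transporters are membrane carriers that move amino acids, and in some families related small molecules, across the plasma membrane or the lysosomal membrane. They were taken here as the genes of 6 solute carrier families (SLC1, SLC6, SLC7, SLC36, SLC38 and SLC43), with SLC7A11 left out. The tables hold 48 such names among 19845, and 29 of them had 3 or more libraries, of 15, with a normalized count of 1 or above. By substrate class these were 5 of 7 glutamine carriers, 2 of 4 glutamate carriers, 9 of 17 carriers of neutral amino acids, 4 of 8 cationic ones, 6 of 9 carriers of other substrates, and 3 of 3 with no substrate assigned here. The third-highest library value of the last genes to be kept was 1.06 for SLC6A11, 1.27 for SLC38A5 and 1.63 for SLC6A3, and the next genes below were SLC7A8 at 0.876 and SLC7A7 at 0.739. No value of the 19 names left out was above 1.22.

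Messenger RNA was measured by sequencing in HCC1954, an established human breast cancer line labelled HER2-positive, in 4 groups of cells. M-BM (4 libraries) are brain-tropic cells from metachronous metastases, Lat (4 libraries) are brain-tropic latent or residual cells, S-BM (4 libraries) are brain-tropic cells from synchronous metastases, and Pa (3 libraries) are the parental cells. All groups stem from a single line and were grown in what the labels call R3F before RNA extraction, so the values describe cultured cells and not tissue. Whether replicate libraries of 1 group were grown or sampled separately is not stated in the labels, so the spread behind each p-value may be technical.

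Each value is a normalized count, that is, reads assigned to a gene after the authors' scaling between libraries. Between 13.25 M and 21.84 M reads per library were assigned to genes, and a count of 3 reads, taken as the floor, corresponds to a value of 0.136 to 0.225, which covers counting error only. M-BM, Lat and S-BM share a table and were tested together, while Pa stands in a table of its own and is given by its levels. Pa values are as deposited, except in the paragraph on the parental cells, where they are multiplied by 1.0062. Libraries S-BM 3 and S-BM 4 stood apart from the rest of their group: ERBB2, the HER2 gene, was at 353 and 367 there, while S-BM 1 and S-BM 2 held 4109 and 4642, and its neighbours GRB7 and STARD3 were low in the same libraries. S-BM 3 and S-BM 4 were also the closest of the pairs within a group, differing by 3.40 times counting noise, followed by Lat 1 and Lat 2 at 3.88 times. The summed level of 6 epithelial markers, all detected, was 3414 to 4271 in M-BM, 3498 to 3871 in Lat, 5499 to 6162 in S-BM and 6453 to 7136 in Pa, and its part in the results was not tested. In bulk RNA, fewer cells that express a gene and less of its RNA per cell cannot be told apart.

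Cells take up amino acids for protein synthesis, for energy and nitrogen metabolism and as signals to the growth kinase mTORC1. Uniporters such as those of SLC43 let their substrates equilibrate, sodium-coupled carriers of SLC1, SLC6 and SLC38 concentrate theirs, and exchangers of SLC7 swap an internal amino acid, often glutamine, for an external one. Several SLC7 carriers reach the membrane only in a dimer with the glycoprotein SLC3A2, the 4F2 heavy chain. In brain, glutamate is the main excitatory transmitter, and high-affinity SLC1 carriers of glia and neurons clear it from the extracellular space.

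Set per kilobase of annotated exon, which allows a rough comparison between genes, the level was very uneven among the 29 transporters. The length used joins the exons of all annotated coding transcripts and may differ from that counted by the authors. The order of genes close in level is therefore uncertain. SLC7A5, the light chain of the LAT1 exchanger for large neutral amino acids, averaged 480.0 ± 71.2 normalized counts per kb in M-BM, 470.6 ± 39.6 in Lat, 284.9 ± 65.8 in S-BM (SD, n = 4 each) and 149.0 ± 8.02 in Pa (SD, n = 3). The glutamine carrier SLC38A2 averaged 244.6 ± 41.8 in M-BM, 211.3 ± 46.6 in Lat, 224.1 ± 15.6 in S-BM and 187.1 ± 27.8 in Pa. SLC7A5 thus had the highest mean of the 29 in M-BM, Lat and S-BM, and SLC38A2 had it in Pa. The glutamine carriers SLC1A5 and SLC38A1 followed in each brain-derived group, at 92.4 to 112.4 and 81.0 to 95.7 per kb, while in Pa the glutamate carrier SLC1A3, at 79.6, stood between SLC1A5 at 104.6 and SLC38A1 at 75.1. Over all 15 libraries the lowest mean was that of the GABA carrier SLC6A11, at 0.115 per kb.

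Summed per class on the same scale, glutamate carriers held 20.4 ± 7.36 per kb in M-BM, 14.5 ± 0.431 in Lat, 79.6 ± 18.1 in S-BM (SD, n = 4 each) and 119.3 ± 8.24 in Pa (SD, n = 3). Carriers of neutral amino acids ran the other way, at 508.0 ± 72.1 per kb in M-BM, 497.8 ± 41.9 in Lat, 307.3 ± 66.6 in S-BM and 169.7 ± 7.23 in Pa. In both classes every M-BM and Lat library stood clear of every S-BM and Pa library, below them for glutamate and above them for neutral amino acids. SLC7A5 alone made up most of the neutral sum in every group. Glutamine carriers summed to 455.6 ± 63.6 per kb in M-BM, 393.6 ± 75.6 in Lat, 418.7 ± 29.4 in S-BM and 370.1 ± 33.7 in Pa, and the groups overlapped. Cationic carriers were at 34.9 ± 2.74, 35.4 ± 2.40, 39.0 ± 5.22 and 30.5 ± 1.55 per kb in the same order of groups, with the brain-derived groups overlapping.

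**Figure D1:**
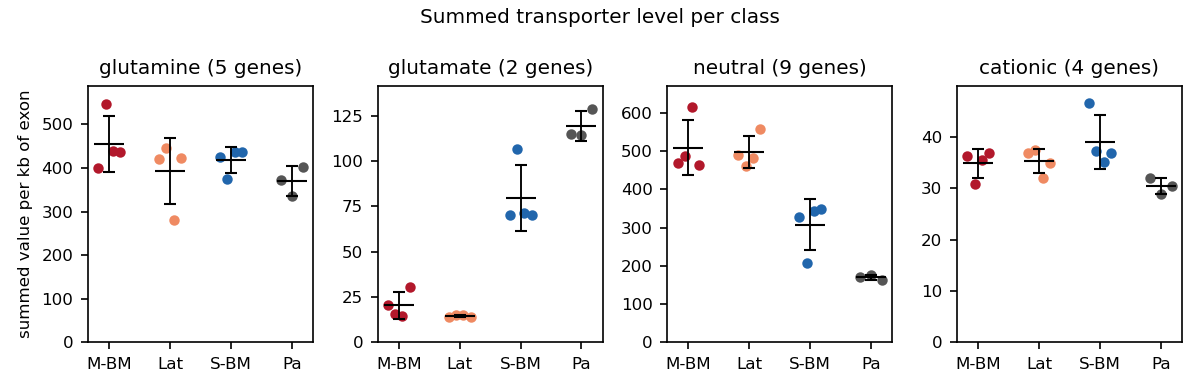
Summed normalized count per kb of exon (vertical axis) of the glutamine, glutamate, neutral and cationic transporters that met the expression rule, by group (horizontal axis), with 1 point per library and bars for the mean and SD. The glutamate sum lies between 14.1 and 30.7 per kb in the 8 M-BM and Lat libraries and between 70.2 and 106.7 in S-BM, while the neutral sum lies between 460.6 and 615.1 in M-BM and Lat and between 208.4 and 349.0 in S-BM.

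Of the 29 transporters, 18 had a value of 10 or more in 4 or more brain-derived libraries (12 in all) and were tested among 9646 genes. In M-BM against S-BM, 10 of the 18 passed an adjusted p of 0.05, 3 higher and 7 lower, where 52.7% of all tested genes passed, 26.9% higher and 25.8% lower. In Lat against S-BM, 11 of the 18 passed, 3 higher and 8 lower, where 59.7% of all tested genes passed, 30.2% higher and 29.4% lower. The share of transporters that passed was thus close to that of all genes, 55.6% in M-BM and 61.1% in Lat. The median log2 fold change of the 18 was −0.12 in M-BM against S-BM and −0.26 in Lat against S-BM, beside 0.008 and 0.005 over all tested genes. At 2-fold or more the count was 5 of 18 in M-BM and 4 of 18 in Lat, against 9.76% and 13.4% of all genes. Both comparisons use the same S-BM libraries. Of the 18, SLC43A3 passed the filter only through S-BM, and SLC6A8 through M-BM and Lat alone, so these genes could enter the test only by being high in a group.

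**Figure D2:**
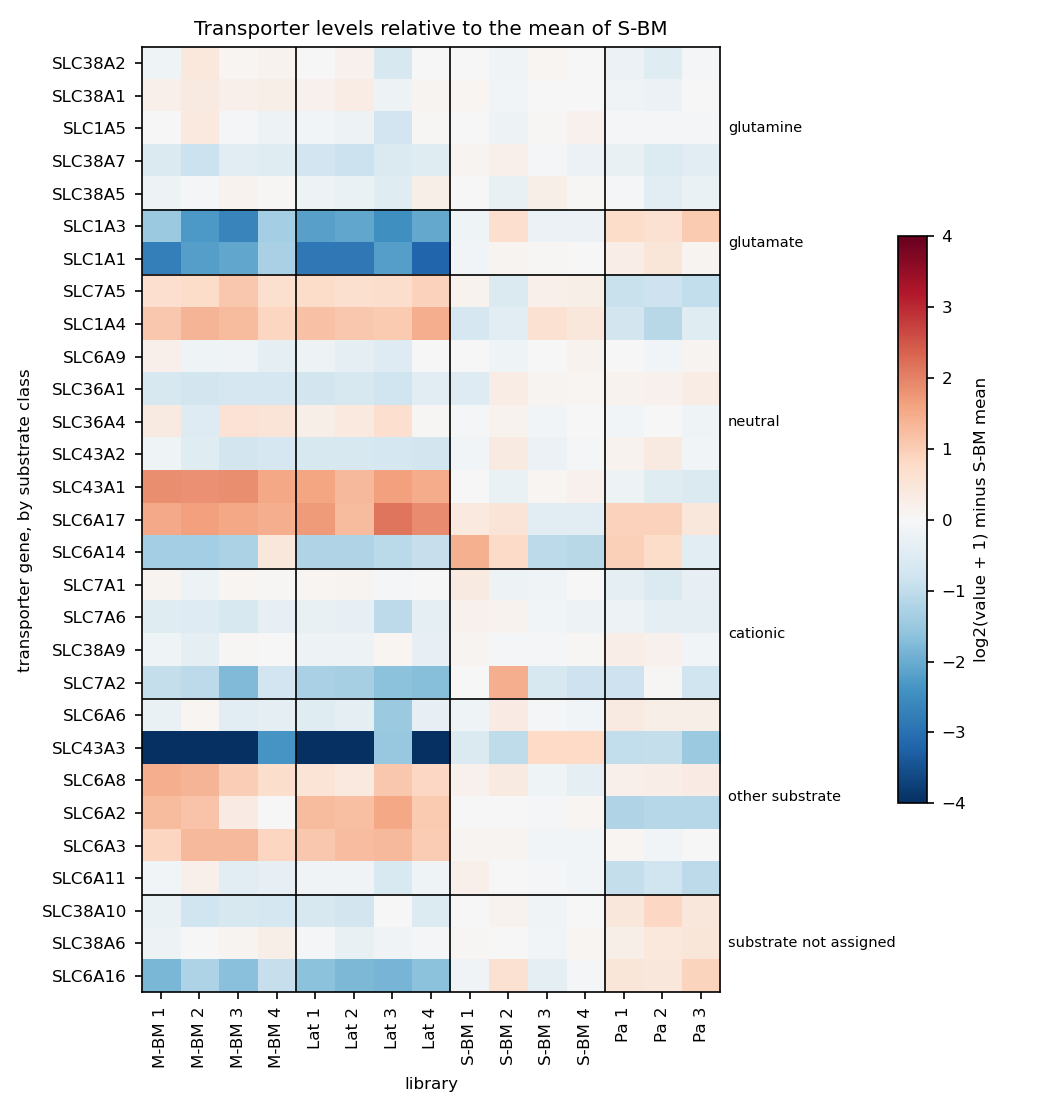
Each cell is log2(normalized count + 1) of a transporter (rows, by substrate class) in a library (columns) minus the S-BM mean on that scale. The columns are M-BM 1 to 4, Lat 1 to 4, S-BM 1 to 4 and Pa 1 to 3, with Pa as deposited. Red is above and blue below the S-BM mean, with the colour held at its end point beyond 4 log2 units. SLC1A1, SLC1A3 and SLC43A3 are blue across the M-BM and Lat columns, SLC1A4, SLC7A5, SLC43A1 and SLC6A17 are red there, and SLC38A1, SLC38A2 and SLC1A5 stay close to white.

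Both expressed glutamate carriers fell in M-BM and in Lat. SLC1A1 (EAAT3, the carrier of neurons and many epithelia; chromosome 9, 4490468 to 4587469, plus strand, GRCh38) had 17.2, 25.3, 27.7 and 49.1 normalized counts in M-BM 1 to 4 and 15.7, 15.8, 25.4 and 12.5 in Lat 1 to 4, against 111.3, 130.5, 123.6 and 118.9 in S-BM 1 to 4. No M-BM or Lat library came near the lowest S-BM library, and M-BM 4 was the highest of the 8. The log2 fold change was −2.08 ± 0.25 (SE; 4.23-fold lower, adjusted p = 2.25e-05) in M-BM against S-BM and −2.78 ± 0.25 (6.86-fold lower, adjusted p = 1.22e-06) in Lat against S-BM. Pa, at 144.3, 168.7 and 130.4, was near S-BM. The coding gene SPATA6L lies over part of SLC1A1 on the other strand, and since the library kit does not mark strand, reads in the overlap cannot be told apart.

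SLC1A3 (EAAT1 or GLAST, best known as a carrier of astrocytes; chromosome 5, 36596588 to 36688334, plus strand) had 72.5, 41.0, 32.0 and 79.5 in M-BM and 45.1, 48.2, 36.7 and 48.8 in Lat, against 182.5, 324.8, 172.5 and 173.4 in S-BM. Here too the groups were apart, with S-BM 2 well above the other S-BM libraries. SLC1A3 was 3.85-fold lower in M-BM (log2 fold change −1.95 ± 0.27 SE, adjusted p = 5.47e-05) and 4.54-fold lower in Lat (−2.18 ± 0.27, adjusted p = 1.28e-05). The astrocyte genes GFAP and ALDH1L1 were at or near 0 in every library, their sum nowhere above 0.139. Pa held 344.7, 312.9 and 425.3, more than any M-BM or Lat library. SLC1A2, the main glial glutamate carrier of the forebrain, did not meet the expression rule and was nowhere above 0.662.

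The glutamine carriers were level by comparison. SLC38A1 (SNAT1, a sodium-coupled carrier of glutamine and small neutral amino acids) had 889.7, 993.4, 890.7 and 915.0 in M-BM and 878.3, 948.9, 680.8 and 846.2 in Lat, against 825.5, 726.6, 797.0 and 774.1 in S-BM. All M-BM libraries were above all S-BM libraries, yet the log2 fold change of 0.24 ± 0.10 (SE) missed the threshold (adjusted p = 0.0612), and it passed with DESeq2 (adjusted p = 0.0436) and with only M-BM and S-BM in the fit (adjusted p = 0.0350). In Lat the libraries overlapped S-BM (log2 fold change 0.09, adjusted p = 0.445).

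SLC38A2 (SNAT2, the related carrier that cells make more of when amino acids run short) had 989, 1497, 1189 and 1222 in M-BM and 1139, 1265, 724 and 1103 in Lat, against 1144, 1009, 1191 and 1144 in S-BM. SLC1A5 (ASCT2, a glutamine exchanger) had 355.0, 474.2, 351.3 and 317.0 in M-BM and 334.5, 311.4, 210.7 and 375.3 in Lat, against 357.8, 310.7, 374.5 and 410.3 in S-BM. Both overlapped between all groups. The 95% interval of the log2 fold change in M-BM against S-BM ran from −0.23 to 0.46 for SLC38A2 and from −0.33 to 0.39 for SLC1A5, and in Lat from −0.46 to 0.23 and from −0.62 to 0.10, so a change as large as that of the glutamate carriers lies outside these intervals. Lat 3 was the lowest of the 12 brain-derived libraries for SLC38A1, SLC38A2 and SLC1A5.

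SLC38A7 (SNAT7, a lysosomal glutamine exporter) was the exception in its class. It had 14.03, 11.2, 15.1 and 15.1 in M-BM and 12.1, 11.2, 14.03 and 15.1 in Lat, against 23.0, 24.5, 20.2 and 17.9 in S-BM, with no overlap. SLC38A7 had a log2 fold change of −0.59 ± 0.14 (SE, adjusted p = 0.00288) in M-BM and of −0.67 ± 0.14 (adjusted p = 0.000965) in Lat. SLC38A5 stayed near 1 in every group, between 0.466 and 1.42 in the 12 libraries.

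Among carriers of neutral amino acids, SLC7A5 and SLC1A4 rose. SLC7A5 (LAT1, which exchanges leucine and other large neutral amino acids; chromosome 16, 87830023 to 87869507, minus strand) had 2013, 2100, 2687 and 2006 in M-BM and 2124, 1997, 2095 and 2418 in Lat, against 1415, 856, 1466 and 1489 in S-BM and 689.0, 716.8 and 644.0 in Pa. The M-BM and Lat libraries were above all of S-BM, and S-BM above all of Pa. It was 1.71-fold higher in M-BM (log2 fold change 0.78 ± 0.16 SE, adjusted p = 0.00138) and 1.69-fold higher in Lat (0.76 ± 0.16, adjusted p = 0.00128). Its near-identical copies SLC7A5P1 and SLC7A5P2 had at most 0.492 and 2.44, so reads that could be shared with them are uncertain.

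SLC3A2 (the heavy chain that LAT1 needs at the membrane; chromosome 11, 62856109 to 62888860, plus strand) rose with it. Its values were 1066, 1210, 1486 and 1161 in M-BM and 1311, 1231, 1346 and 1303 in Lat, against 715.5, 415.0, 657.7 and 683.8 in S-BM and 360.9, 363.4 and 309.2 in Pa. As for SLC7A5, every M-BM and Lat library was above all of S-BM, every S-BM library was above all of Pa, and S-BM 2 was the lowest S-BM library. The rise was 2.02-fold in M-BM (log2 fold change 1.01 ± 0.15 SE, adjusted p = 0.000122) and 2.14-fold in Lat (1.10 ± 0.15, adjusted p = 4.10e-05). SLC3A1, the heavy chain of kidney and gut carriers, was nowhere above 0.725.

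SLC1A4 (ASCT1, a carrier of serine, alanine and other small neutral amino acids; chromosome 2, 64988479 to 65023865, plus strand) had 46.2, 56.8, 52.5 and 39.7 in M-BM and 49.8, 46.2, 44.9 and 60.6 in Lat, against 13.2, 15.8, 33.4 and 29.8 in S-BM. It was 2.20-fold higher in M-BM (log2 fold change 1.14 ± 0.24 SE, adjusted p = 0.00137) and 2.27-fold higher in Lat (1.19 ± 0.24, adjusted p = 0.000769). S-BM 3 and S-BM 4 were the higher libraries of S-BM, and without them the log2 fold changes were 1.67 in M-BM and 1.72 in Lat. In Pa it had 12.5, 9.37 and 14.96, the first and second below all of S-BM and the last between S-BM 1 and S-BM 2.

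SLC36A1 (PAT1, a proton-coupled carrier of small neutral amino acids on lysosomes and the cell surface; chromosome 5, 151344596 to 151556085, plus strand) fell instead. It had 21.5, 19.97, 21.1 and 21.0 in M-BM and 20.1, 21.8, 19.3 and 24.7 in Lat, against 23.9, 42.4, 37.3 and 36.1 in S-BM. M-BM was below S-BM throughout, while Lat 4 reached above S-BM 1. Its log2 fold change was −0.69 ± 0.15 (SE, adjusted p = 0.00154) in M-BM and −0.65 ± 0.15 (adjusted p = 0.00170) in Lat.

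The glycine carrier SLC6A9 (GLYT1) and SLC36A4, a carrier of proline and tryptophan, did not pass in either comparison, with log2 fold changes of −0.11 and 0.24 in M-BM and −0.26 and 0.34 in Lat. SLC36A4 passed in M-BM against S-BM when M-BM 2 was left out (log2 fold change 0.49, adjusted p = 0.0139). SLC6A9 passed in Lat against S-BM when Lat 4 was left out (−0.36, adjusted p = 0.0407).

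**Figure D3:**
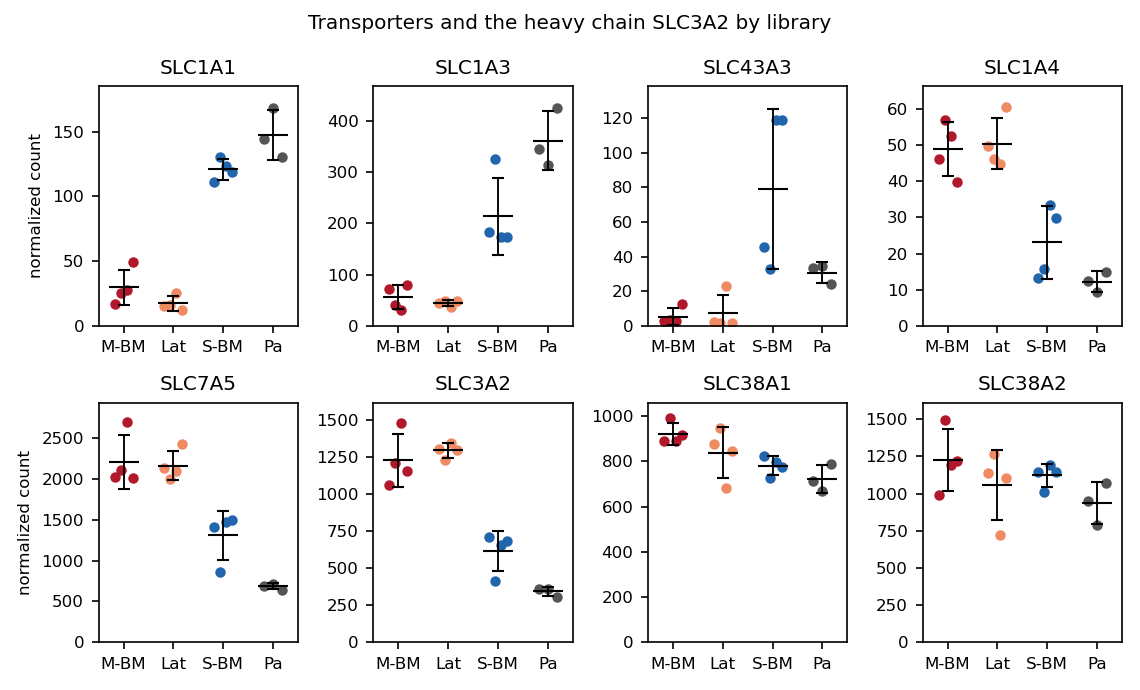
Normalized count (vertical axis, linear from 0) of 7 transporters and the heavy chain SLC3A2 by group (horizontal axis), with 1 point per library and bars for the mean and SD. In SLC1A1, SLC1A3 and SLC43A3 the M-BM and Lat points lie below those of S-BM, in SLC1A4, SLC7A5 and SLC3A2 they lie above, and in SLC38A2 all groups overlap.

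Of the cationic carriers, SLC7A1 (CAT-1, the common carrier of arginine and lysine) had 183.9, 147.7, 179.0 and 177.1 in M-BM and 181.0, 185.7, 166.0 and 173.3 in Lat, against 217.9, 147.7, 154.6 and 171.2 in S-BM. The groups overlapped, and the 95% interval of the log2 fold change ran from −0.25 to 0.26 in M-BM and from −0.21 to 0.30 in Lat. SLC7A6 (y+LAT2, a heavy-chain partner that exchanges arginine for glutamine) had 53.3, 52.7, 47.6 and 59.4 in M-BM and 60.3, 59.8, 36.1 and 57.0 in Lat, against 84.9, 83.5, 69.4 and 64.7 in S-BM. All M-BM and Lat libraries were below S-BM. SLC7A6 had a log2 fold change of −0.49 ± 0.15 (SE, adjusted p = 0.0152) in M-BM and −0.52 ± 0.15 (adjusted p = 0.0100) in Lat, and the coding gene SLC7A6OS overlaps it on the other strand. SLC38A9, the arginine-sensing carrier of the lysosome, stayed between 13.3 and 19.5 in the 12 libraries and did not pass.

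The largest differences were in SLC43A3 (a purine nucleobase carrier of the same family as the leucine uniporters; chromosome 11, 57406954 to 57427580, minus strand), which the test could reach only through S-BM. It had 2.95, 3.25, 2.77 and 12.5 in M-BM and 2.11, 1.55, 23.3 and 1.95 in Lat, against 45.5, 33.1, 119.2 and 119.0 in S-BM and 33.7, 34.9 and 23.97 in Pa. M-BM and Lat were below S-BM throughout, but Lat 3 was far above the other Lat libraries, and S-BM 3 and S-BM 4 were far above S-BM 1 and S-BM 2. Its log2 fold change was −3.68 ± 0.67 (SE, adjusted p = 0.000472) in M-BM and −3.82 ± 0.67 (adjusted p = 0.000254) in Lat. Without S-BM 3 and S-BM 4 it was −2.88 (adjusted p = 0.0106) in M-BM and −3.03 (adjusted p = 0.00672) in Lat, and without Lat 3 it was −4.60 in Lat. A coding gene model, AP000781.2, overlaps SLC43A3 on the same strand, and reads in the overlap cannot be told apart.

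SLC6A8, the creatine carrier, had 18.02, 17.0, 12.8 and 10.3 in M-BM and 9.295, 8.20, 13.9 and 11.4 in Lat, against 6.89, 7.995, 5.25 and 4.36 in S-BM. It rose 2.18-fold in M-BM (log2 fold change 1.12 ± 0.22 SE, adjusted p = 0.000712) and 1.65-fold in Lat (0.72 ± 0.22, adjusted p = 0.0108). SLC6A8 could be tested only through M-BM and Lat. In a fit lacking S-BM 3 and S-BM 4 its log2 change in M-BM was 0.85 (adjusted p = 0.013). In Lat the call did not hold in that fit (a log2 change of 0.45, adjusted p = 0.138). Reads of SLC6A8 may be shared with near-identical pseudogene copies. SLC6A6, the taurine carrier, averaged 92.8 ± 16.3 in M-BM, 72.5 ± 22.7 in Lat and 110.8 ± 17.9 in S-BM (SD, n = 4 each). Its log2 fold change of −0.26 in M-BM did not pass, and that of −0.66 in Lat (adjusted p = 0.0182) was lost without S-BM 2 (adjusted p = 0.0546). SLC38A10, an SLC38 member with no substrate assigned here, had 24.9, 17.0, 19.1 and 18.1 in M-BM and 19.1, 17.8, 30.7 and 20.2 in Lat, against 30.4, 33.0, 27.4 and 30.3 in S-BM. It fell in M-BM (log2 change −0.60, adjusted p = 0.00636), where the groups were apart, and in Lat (−0.48, adjusted p = 0.0194), where Lat 3 lay inside the S-BM range. The Lat call was lost without Lat 1 (adjusted p = 0.0584), without Lat 2 (adjusted p = 0.0664) and when the closest pairs were averaged (adjusted p = 0.0787).

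Between M-BM and Lat, none of the 18 transporters passed, where 0.145% of all tested genes did. With limma, 1 of the 18 had an unadjusted p under 0.05, SLC1A1 (log2 fold change 0.70, 95% interval 0.16 to 1.24, adjusted p = 0.324), and edgeR and DESeq2 on recovered reads also called 0. For 17 of the 18 the interval of M-BM minus Lat included 0, and outside SLC43A3 no interval reached beyond 1.24 log2 units in either direction. For SLC43A3 it ran from −1.29 to 1.58, so differences of more than 2-fold in either direction lie within it.

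**Figure D4:**
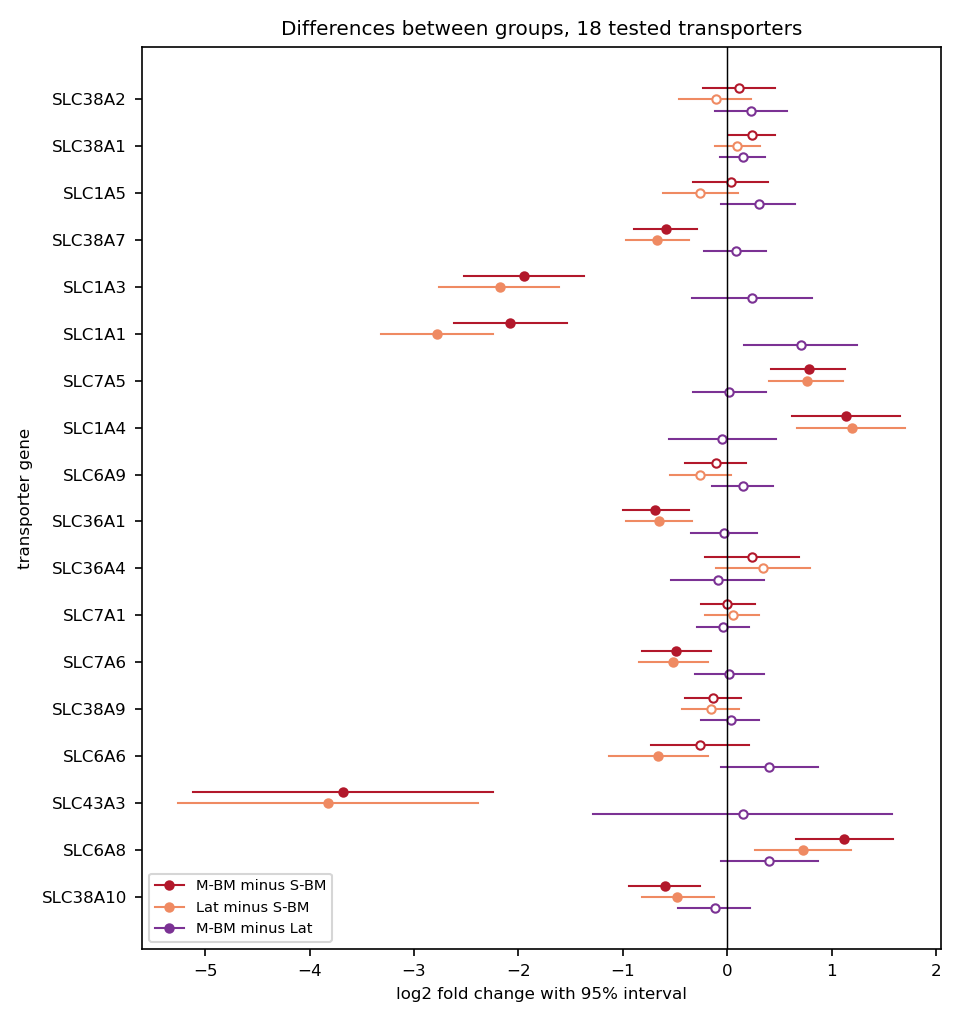
Log2 fold change of the 18 tested transporters (horizontal axis) with the 95% interval as a bar, in 3 comparisons (M-BM minus S-BM, then Lat minus S-BM, then M-BM minus Lat), with filled points where the adjusted p was under 0.05. The M-BM and Lat differences from S-BM lie side by side for most genes, from −3.82 for SLC43A3 in Lat to 1.19 for SLC1A4 in Lat, and no M-BM minus Lat point is filled.

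The remaining 11 transporters did not reach a value of 10 in 4 libraries. They were tested in the fit that kept every gene with 3 or more brain-derived libraries at 1 or above (13021 genes), on the log2(value + 1) scale, which understates the change of such low genes. In M-BM against S-BM and in Lat against S-BM, 7 of the 11 passed, 4 higher and 3 lower each time. Of all genes that only this fit tested, 46.5% passed in M-BM (21.8% higher, 24.7% lower) and 53.0% in Lat (25.5% higher, 27.5% lower). SLC6A17 and SLC6A3 met this filter only through M-BM and Lat, and SLC6A16 and SLC7A2 only through S-BM, so these 4 of the 7 could enter the test only by being high there, and the counts are a description. No member of the 11 passed between M-BM and Lat, where 0.326% of such genes did. With limma, SLC6A2 had an unadjusted p under 0.05 there (log2 fold change −0.58, adjusted p = 0.41).

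SLC43A1 (LAT3, a uniporter of leucine and other branched-chain amino acids; chromosome 11, 57484534 to 57515702, minus strand) rose at a low level. It had 9.16, 8.99, 9.34 and 7.33 in M-BM and 7.395, 5.87, 7.87 and 6.90 in Lat, against 1.82, 1.37, 1.95 and 2.21 in S-BM and 1.46, 0.999 and 0.874 in Pa. No M-BM or Lat library overlapped S-BM. The log2 fold change was 1.78 ± 0.14 (SE, adjusted p = 1.16e-06) in M-BM and 1.5 ± 0.14 (adjusted p = 1.79e-06) in Lat. Its relative SLC43A2 (LAT4), with the same kind of substrate, went the other way: it averaged 5.29 ± 1.17 in M-BM, 4.54 ± 0.184 in Lat and 7.97 ± 1.66 in S-BM (SD, n = 4 each). SLC43A2 had a log2 fold change of −0.51 (adjusted p = 0.0149) in M-BM, lost without M-BM 3 (adjusted p = 0.0514), and −0.68 (adjusted p = 0.00220) in Lat.

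SLC6A17, a carrier of neutral amino acids in synaptic vesicles, also rose. It had 4.73, 5.24, 4.87 and 4.52 in M-BM and 5.44, 3.77, 7.82 and 6.42 in Lat, against 1.60, 1.87, 0.450 and 0.466 in S-BM, with no overlap. The log2 fold change was 1.55 (adjusted p = 0.000154) in M-BM and 1.75 (adjusted p = 3.76e-05) in Lat, and without S-BM 3 and S-BM 4, the lowest libraries, it was 1.10 and 1.29. Like SLC6A3 below, SLC6A17 could be tested only through M-BM and Lat. SLC6A14, a broad carrier of neutral and cationic amino acids, ranged up to 2.47 in M-BM, 0.349 in Lat and 5.75 in S-BM. It was not called in M-BM (adjusted p = 0.179) or in Lat (adjusted p = 0.0894). The S-BM libraries split, S-BM 1 at 5.75, S-BM 2 at 3.29, S-BM 3 at 0.225 and S-BM 4 at 0.175, and without the low pair it passed in M-BM (log2 change −1.96, adjusted p = 0.00338) and in Lat (−2.18, adjusted p = 0.00135).

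Both monoamine carriers of the SLC6 family that met the expression rule had higher means in M-BM and Lat than in S-BM, at normalized counts of 0.936 to 6.26 in M-BM and Lat. SLC6A2, the noradrenaline carrier, had 4.87, 4.47, 2.09 and 1.43 in M-BM and 4.88, 4.65, 6.26 and 4.04 in Lat, against 1.42, 1.47, 1.35 and 1.63 in S-BM. Lat was above S-BM throughout (log2 fold change 1.26, adjusted p = 0.000604). M-BM overlapped S-BM, and its call (0.68, adjusted p = 0.0327) was lost under 9 of 19 alternatives, among them leaving out M-BM 1, M-BM 2, S-BM 1, S-BM 2 or S-BM 3, with adjusted p up to 0.106. SLC6A3, the dopamine carrier, had 0.936, 1.63, 1.65 and 0.951 in M-BM and 1.28, 1.55, 1.66 and 1.19 in Lat, against 0.171, 0.152, 0 and 0 in S-BM, where no library was above the floor of 3 reads. Its log2 fold change of 1.07 in M-BM (adjusted p = 8.59e-05) and 1.16 in Lat (adjusted p = 2.86e-05) therefore depends on the pseudocount, and it could be tested only through M-BM and Lat.

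SLC6A16, an orphan member of SLC6, had 0.197, 0.813, 0.341 and 1.24 in M-BM and 0.359, 0.222, 0.155 and 0.349 in Lat, against 2.85, 5.46, 2.25 and 2.97 in S-BM, with no overlap. It was lower in M-BM (log2 change −1.41, adjusted p = 0.000224) and in Lat (−1.74, adjusted p = 2.68e-05). SLC6A16 could enter that test only through S-BM, since M-BM 4 was the only other brain-derived library at 1 or above. SLC7A2 (CAT-2, a carrier of cationic amino acids) had 0.936, 0.813, 0.0973 and 1.19 in M-BM and 0.514, 0.498, 0.207 and 0.139 in Lat, against 2.73, 9.36, 1.42 and 1.11 in S-BM. Lat was below S-BM, while M-BM 4 overlapped it and was the only library of the 8 at 1 or above, so SLC7A2 too could be tested only through S-BM. SLC7A2 fell in Lat (log2 fold change −1.5, adjusted p = 0.00518) and in M-BM (−1.14, adjusted p = 0.0272), where the call was lost without M-BM 3 (adjusted p = 0.0881), with only M-BM and S-BM in the fit (adjusted p = 0.0566) and with a pseudocount of 10 (adjusted p = 0.0616). Without S-BM 3 and S-BM 4 the log2 fold change of SLC7A2 was −1.87 in M-BM and −2.23 in Lat. SLC38A5, SLC38A6 and SLC6A11 did not pass in either comparison. Of the names left out for low values, SLC7A8 (LAT2) ranged from 0.0554 to 1.22.

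**Figure D5:**
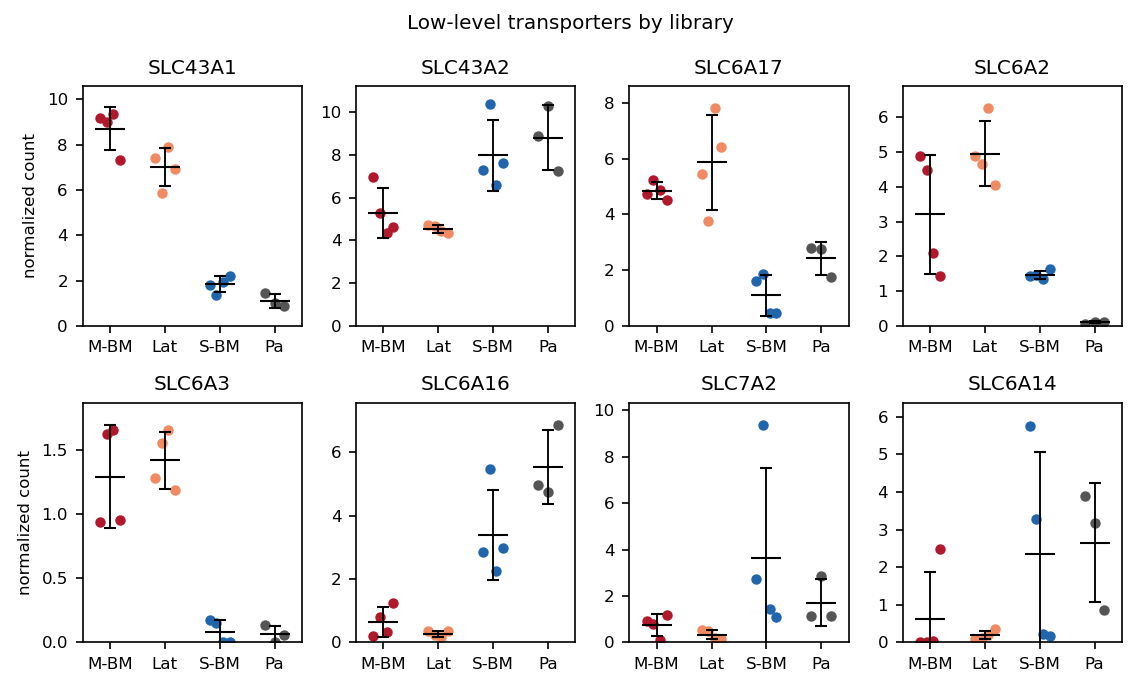
Normalized count (vertical axis, linear from 0) of 8 transporters that did not reach a value of 10 in 4 libraries, by group (horizontal axis), with 1 point per library and bars for the mean and SD. SLC43A1, SLC6A17 and SLC6A3 lie higher in M-BM and Lat than in S-BM, SLC6A16 lies lower, and SLC6A14 is split within S-BM, between 0.175 and 5.75.

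The parental cells are described by level, with no test. Of the 29 transporters, the Pa range met that of M-BM for 11, of Lat for 8 and of S-BM for 21, where it did so for 34.5%, 30.4% and 59.4% of all genes at such levels. Pa libraries were above all 12 others for 2 of the 29, SLC1A1 and SLC38A10, where 14.3% of all such genes were, and below all 12 for 4, SLC7A1, SLC7A5, SLC6A11 and SLC6A2, where 12.1% were. For SLC1A1 the highest S-BM value, 130.5, was just below the lowest Pa value, 131.2, and on the values as deposited the ranges overlapped. For SLC38A10 the M-BM, Lat and S-BM means were 0.428, 0.475 and 0.655 times the Pa mean. For SLC7A5 the M-BM, Lat and S-BM means were 3.20, 3.14 and 1.901 times the Pa mean. SLC7A1, level among the brain-derived groups, was at 147.7 to 217.9 in those 12 libraries, against 115.9 to 135.5 in Pa. SLC6A2 was at 1.35 or more in the 12 libraries, against 0.0666 to 0.126 in Pa, below the floor of 3 reads.

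Genes around the transporters were read from 3 lists. Of the 27 tested genes of amino acid sensing, 14 passed in M-BM against S-BM, 10 higher and 4 lower, and 17 passed in Lat against S-BM, 11 higher and 6 lower. Of 9 tested carriers of other families for amino acids and peptides, 5 passed in M-BM, 1 higher and 4 lower, and 4 in Lat, 1 higher and 3 lower. Both heavy chains matched, and SLC3A2, described above, was the only one tested. Across the 3 lists 54.1% passed in M-BM and 59.5% in Lat, near the shares of all genes.

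ATF4, the transcription factor that translates amino acid shortage into new carriers and synthetic enzymes, had 542.0, 579.0, 567.1 and 502.5 in M-BM and 566.4, 534.8, 602.0 and 607.4 in Lat, against 312.8, 274.2, 315.4 and 344.0 in S-BM and 244.9, 231.7 and 238.0 in Pa. M-BM and Lat were above S-BM throughout, and S-BM above Pa. The log2 fold change was 0.81 ± 0.09 (SE, adjusted p = 1.09e-05) in M-BM and 0.89 ± 0.09 (adjusted p = 2.66e-06) in Lat. Its target and partner DDIT3 (CHOP) rose 2.97-fold in M-BM (log2 change 1.57, adjusted p = 6.90e-06) and 3.36-fold in Lat (1.75, adjusted p = 1.37e-06).

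TFEB, a transcription factor of lysosomal genes, rose 2.01-fold in M-BM (log2 change 1.01, adjusted p = 0.00315) and 2.06-fold in Lat (1.04, adjusted p = 0.00198), at values of 6.71 to 12.9 and 7.56 to 13.9 against 3.04 to 5.70 in S-BM, and it passed the filter only through M-BM and Lat. SESN1, of the leucine-sensing sestrins, fell by 0.96 on the log2 scale in M-BM (adjusted p = 0.000576) and by 1.35 in Lat (2.54-fold, adjusted p = 2.61e-05). Its relatives SESN2 and SESN3 were chosen after their values were seen. SESN2 rose by 0.91 on the same scale in M-BM (adjusted p = 2.95e-05) and by 0.88 in Lat (adjusted p = 2.09e-05), and SESN3 fell by 0.79 in M-BM (adjusted p = 0.0182) and by 0.72 in Lat (adjusted p = 0.0238). SLC17A5, the sialic acid carrier of lysosomes, fell by 0.95 on the log2 scale in M-BM (adjusted p = 0.000767) and by 1.19 in Lat (2.28-fold, adjusted p = 9.41e-05).

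The RefSeq promoters (GRCh38.p14, 250 bases before to 50 after each start) were searched on both strands for TGATGNAA and CACGTG. TGATGNAA is the core of the element that ATF4 binds with its partners. CACGTG is an E-box of the kind that TFEB and MYC bind. Whether these factors act on the transporters was not tested. Promoters were found for 24 of the 29 transporters, 38 windows in all. TGATGNAA was in 5 of the 38 windows, those of SLC1A3, SLC1A4, SLC1A5, SLC38A1 and SLC7A1, and in 3.62% of 35116 windows of all genes. CACGTG was in 7 of the 38, those of SLC1A5, SLC36A1, SLC38A5, SLC38A7, SLC43A1, SLC6A16 and SLC7A5, and in 7.26% of all windows. No window held both motifs, and a match describes letters only. Each motif occurred beside genes that rose and genes that fell: TGATGNAA at SLC1A4, which rose, and at SLC1A3, which fell, and CACGTG at SLC7A5 and SLC43A1, which rose, and at SLC36A1, SLC38A7 and SLC6A16, which fell. Each motif also occurred beside genes that did not pass in either comparison with S-BM: TGATGNAA at SLC1A5, SLC38A1 and SLC7A1, and CACGTG at SLC1A5 and SLC38A5.

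The windows of the leucine carriers that rose are shown over the 250 bases before the start, and those of SLC36A1, SLC1A4 and SLC1A3 as 30 bases around the match, all on the strand of the gene, 5′ to 3′, with the match in capitals.
SLC7A5, chr16:87869508-87869757, minus strand: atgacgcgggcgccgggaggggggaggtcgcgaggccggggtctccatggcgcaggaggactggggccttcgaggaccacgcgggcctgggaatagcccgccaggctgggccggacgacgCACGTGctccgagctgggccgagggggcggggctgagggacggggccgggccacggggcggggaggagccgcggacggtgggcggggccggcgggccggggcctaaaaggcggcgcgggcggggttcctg
SLC43A1, chr11:57515703-57515952, minus strand: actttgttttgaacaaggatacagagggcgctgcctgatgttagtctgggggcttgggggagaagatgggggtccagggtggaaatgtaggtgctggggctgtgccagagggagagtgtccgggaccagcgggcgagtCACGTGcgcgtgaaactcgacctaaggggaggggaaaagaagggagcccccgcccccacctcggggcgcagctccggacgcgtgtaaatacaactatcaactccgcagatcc
SLC36A1, chr5:151447548-151447577, plus strand: cgctcaagggagCACGTGacctcggcctct
SLC36A1, chr5:151447583-151447612, plus strand: gggcggtgggatCACGTGatgaggtccgga
SLC1A4, chr2:64989381-64989410, plus strand: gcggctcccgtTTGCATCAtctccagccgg
SLC1A3, chr5:36596357-36596386, plus strand: caggaaatgacTGATGCAAagcagggttaa
The match begins 130 bases before the start in SLC7A5, 112 before it in SLC43A1, 43 and 8 before it in SLC36A1, 7 before it in SLC1A4 and 220 before it in SLC1A3. The start is that of the promoter window. In SLC36A1 and SLC1A4 it lies inside the gene span given above, downstream of the span's first base. In SLC1A4 the match is on the strand opposite to the gene, so that the capitals spell the reverse complement of TGATGNAA, while CACGTG reads the same on both strands.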

How the data were processed

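RNA-seq libraries were made with a kit that does not mark strand, per the labels' protocols, and the submitters' processing notes name Bowtie 0.12.2 as a tool and GRCh38 as the build. How genes were annotated, counted and scaled was not given in the sources used here. As deposited, a signal value is a gene's normalized count in a library, and the authors' columns sum to between 963150 and 1026297. In every library 100% of values came out as whole numbers of reads, to within 0.05, once divided by the library's smallest step, and these reads were used for count models.

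M-BM, Lat and S-BM were fitted together with limma 3.58.1 (R 4.3.3) on log2(value + 1), with a filter of 10 in 4 or more of 12 libraries, a mean for each of 3 groups, a trended variance and 9 residual degrees of freedom. P-values are two-sided and Benjamini-Hochberg adjusted over all 9646 genes and a threshold of 0.05. Fold changes are on the log2(value + 1) scale. The self-test ran the same fit on simulated data. Alternatives were TMM and quantile scaling, pseudocounts of 0.1 and 10, filters, edgeR 4.0.16 and DESeq2 1.42.0 on recovered reads, a replicate block, other sets of libraries and averaged closest pairs. Replicate numbers recur across groups, but residuals of same-numbered libraries did not correlate throughout (4 of 12 pairs above 0.1), so they were not used to pair libraries. Gene positions and promoters come from RefSeq on GRCh38.p14. Exon lengths, strands and overlapping genes come from GENCODE on GRCh38.

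The members and gene lists were chosen with earlier results of these data known. Every member was accounted for. Values in every M-BM, Lat and S-BM library are given for those above the filter of 10 called at 2-fold or more. They are also given for a fixed set of 13 genes, except SLC7A8, left out for low values and given by its range. Further members have them where libraries were shown to describe overlap. Of other genes, those called at 2-fold or more are named. The classes follow known substrates, and genes tested only after the filter was lowered to 1 in at least 3 libraries were fitted with alternatives added after the data were seen.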

Additional observations from a re-analysis of the deposited data

Results flagged for a closer look

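Among 87 sets of 4 libraries (29 transporters in M-BM, Lat and S-BM), 8 held a library set far from the other libraries of its group, 9.2%, where chance gives about 1 in 20. In M-BM, SLC6A14 was at 2.47 in M-BM 4, against 0 to 0.0487 in the other M-BM libraries. SLC43A3 was at 12.5 in the same library, against 2.77 to 3.25. SLC7A5 was at 2687 in M-BM 3, against 2006 to 2100. In Lat, all 3 cases were in Lat 3: SLC7A6 at 36.1 against 57.0 to 60.3, SLC43A3 at 23.3 against 1.55 to 2.11, and SLC6A11 at 0.362 against 0.837 to 0.886. In S-BM, both cases were in S-BM 2: SLC1A3 at 325 against 173 to 183, and SLC7A5 at 856 against 1415 to 1489. The sources of these values were not tested.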

How the results depend on the processing

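For the 18 transporters tested with the filter of 10, no fold change that was called reversed under any alternative run. Of 360 values under alternatives for Lat minus S-BM, 354 stayed on their side of the threshold, 5 lost the call and 1 gained it, and of 360 for M-BM minus S-BM, 357 stayed and 3 gained it. All 342 for M-BM minus Lat stayed uncalled. Lowering the filter to 1, or removing it, tests all 29 transporters, and the number called higher then was 7 and 7 in Lat against S-BM and 7 and 6 in M-BM against S-BM, in place of 3 each. Leaving out 1 library at a time gave 3 to 3 higher and 7 to 9 lower in Lat against S-BM, 3 to 4 higher and 7 to 7 lower in M-BM against S-BM, and 0 to 0 either way in M-BM against Lat. With the replicate block the counts were 3 higher and 8 lower in Lat against S-BM, 3 higher and 7 lower in M-BM against S-BM and 0 in M-BM against Lat, and it changed no call of a tested transporter. On Pa values as deposited, 1 transporter in place of 2 lay above all 12 other libraries, since SLC1A1 then overlapped S-BM. Over all genes, edgeR called 5072, 5748 and 12 and DESeq2 5315, 5903 and 141 in M-BM against S-BM, Lat against S-BM and M-BM against Lat, beside 5084, 5754 and 14 with limma, and the cause of the difference in M-BM against Lat was not tested. Low values make fold changes move with the pseudocount and the tool. With a pseudocount of 10, SLC43A3 had −2.42 in M-BM and −2.37 in Lat against S-BM on the log2 scale, in place of −3.68 and −3.82, and remained called. In Lat against S-BM the log2 fold change of SLC6A3 was 1.16, 0.18 with a pseudocount of 10 and 4.03 with DESeq2. Depth limits genes near the floor of 3 reads, such as SLC6A3 in S-BM and SLC6A2 in Pa.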
